A study of Mus musculus with 14 samples.

Results

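Immature neurons of the postnatal brain were followed through 9 genes, Dcx, Sox4, Sox11, Igfbpl1, Dlx1, Dlx2, Nnat, Marcksl1 and Stmn2, chosen by name out of 56748 genes in the count table. All 9 passed the filter on low counts and were among the 18170 genes tested. RNA came from 1 side of the brains, cut along the midline, of 14 C57BL6/J pups at postnatal day 14, of which 8 were Rik null (7 labelled male and 1 female) and 6 were WT (2 labelled male and 4 female), with 1 library per pup. Rik null pups were homozygous for a spontaneous intronic deletion in 2310061I04Rik (Rik), a predicted gene of unknown function, that arose in 1 embryonic stem cell clone and was carried in every tissue; the floxed Traf7 allele made from the same clone had been bred out. The WT pups were littermates. The question put to these genes was whether they differed between the genotypes and how they moved together from library to library.

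Newborn neurons pass through a stage in which they migrate and extend processes before they form synapses. Doublecortin and the stathmins act on their microtubules, MARCKS-like 1 on actin beneath the membrane, SoxC factors switch on neuronal genes, and Dlx factors specify GABAergic interneurons. In the rodent brain such cells persist after birth in the subventricular zone, the rostral migratory stream and olfactory bulb, the dentate gyrus and, for granule neurons, the outer layer of the cerebellum. In RNA from a whole side of the brain, fewer cells of a type and less RNA per cell cannot be told apart.

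Promoter sequences are shown for Dcx, Sox4 and Sox11, the members that carried letters of a homeodomain, SOX or E box motif. Sequences run from 250 bases before to 50 after a transcript's start, were taken from RefSeq (GRCm38.p6), and were present for 7 of the 9 members. Capitals mark the motif letters CCAAT (read as ATTGG where the match is on the other strand), then TAATTA, further AACAAAG, and lastly CAGCTG, and positions count from the start, with bases before it negative. The Dcx sequence is chrX:143933075-143933374, minus strand, and belongs to the second of 2 listed starts. The Sox4 sequence is chr13:28953650-28953949, minus strand. The Sox11 sequence is chr12:27342669-27342968, minus strand.
Dcx: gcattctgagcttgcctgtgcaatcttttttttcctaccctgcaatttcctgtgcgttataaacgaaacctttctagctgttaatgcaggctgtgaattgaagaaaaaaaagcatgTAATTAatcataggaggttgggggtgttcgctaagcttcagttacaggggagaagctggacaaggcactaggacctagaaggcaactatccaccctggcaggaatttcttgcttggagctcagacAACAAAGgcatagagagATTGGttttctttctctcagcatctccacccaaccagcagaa
Sox4: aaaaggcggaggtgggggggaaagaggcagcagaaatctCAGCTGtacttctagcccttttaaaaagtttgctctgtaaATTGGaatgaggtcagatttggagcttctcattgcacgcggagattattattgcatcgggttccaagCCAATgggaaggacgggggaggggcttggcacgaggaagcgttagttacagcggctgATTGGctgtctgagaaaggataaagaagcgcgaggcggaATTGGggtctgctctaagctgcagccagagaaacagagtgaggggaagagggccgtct
Sox11: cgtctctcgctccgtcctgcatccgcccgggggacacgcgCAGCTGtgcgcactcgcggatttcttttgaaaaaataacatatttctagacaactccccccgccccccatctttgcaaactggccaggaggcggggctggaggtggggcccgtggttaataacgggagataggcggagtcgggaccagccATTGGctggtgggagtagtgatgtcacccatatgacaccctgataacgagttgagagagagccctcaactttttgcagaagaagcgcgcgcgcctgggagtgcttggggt

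Both SoxC genes among the members held CAGCTG, an E box core that proneural factors can bind, at almost the same distance, position -211 in Sox4 and -210 in Sox11. The promoter of Sox12, another SoxC gene, was not searched. This palindrome, which reads alike on both strands, was in 2 of the 7 members with a sequence, against 16.3% of 32851 promoters of the same length. Dcx was the only member with TAATTA, a palindromic homeodomain core (position -134, in 5.29% of promoters), and with AACAAAG, a SOX core (position -9, in 5.85%). AACAAT, the other SOX core searched on both strands, was in none of the 7 and in 10.7% of promoters. CCAAT was in Dcx, Sox4, Sox11, Dlx2 and Marcksl1, 5 of 7, against 37.4% of promoters, and Sox4 held 4 copies. None of the searched motifs overlapped one another in the printed sequences. A member was counted if any of its listed starts held the letters, and Dcx had 2 starts, whereas the shares count each promoter window by itself. Of the 2 Dcx windows only that of the second start held AACAAAG. These matches describe the letters of the window and were not tested as binding sites.

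Rik itself had 7.44 to 10.6 CPM in Rik null and 68.9 to 79.4 CPM in WT brains (CPM are read counts scaled to a common library size with TMM factors). Library totals were 15183130 to 28012811 counts in Rik null and 18102343 to 30993890 in WT. Clustering of all tested genes other than these members and the listed neuroblast genes divided the libraries into 2 sets that crossed genotype. A 6-library set held Rik null 2, 3, 4 and 5 with WT 2 and 3, and an 8-library set held Rik null 1, 6, 7 and 8 with WT 1, 4, 5 and 6; the labels used here name no litter or preparation batch. WT 1, labelled male, had 436 CPM of Xist and 0 of Y-linked genes, and WT 6, labelled female, had 0.162 CPM of Xist and 157 of Y-linked genes. The pituitary gene Gh reached 44.5 CPM in Rik null 5 and 185 in Rik null 8 and was at most 0.961 CPM elsewhere. Leaving out WT 1 and WT 6, or Rik null 5 and 8, left the count of members called between the genotypes at 0.

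Per unit of gene length, Marcksl1 was the most abundant member at a mean of 296 FPKM (the deposited level corrected for gene length and library size; range 181 to 399 over the 14 libraries). Nnat followed at 164 FPKM (111 to 222) and Stmn2 at 126 FPKM (86.2 to 164). Each of these and Sox4, at 14.9 FPKM (10.5 to 18.2), lay above the next gene in all 14 libraries. The remaining 5 were close together, with mean levels of 7.31 FPKM for Dcx, 6.83 for Igfbpl1, 4.61 for Dlx2, 4.23 for Sox11 and 3.98 for Dlx1. Their order was not stable: Dcx exceeded Igfbpl1 in 8 libraries, Igfbpl1 exceeded Dlx2 in 9, Dlx2 exceeded Sox11 in 10 and Sox11 exceeded Dlx1 in 8.

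None of the 9 genes was called changed between Rik null and WT brains. Across all genes 602 of 18170 were called (3.31%; 1.12% higher and 2.2% lower in Rik null) by the quasi-likelihood test of edgeR, with a threshold of 0.05 on p adjusted after Benjamini and Hochberg, and 18.6% had an unadjusted p at or below that level. Of the members, 0 reached it unadjusted by edgeR, and DESeq2 called 0 with 1, Nnat, below it unadjusted. The fold change was positive for 8 of 9, with a median of 0.17 on the log2 scale, beside 50.5% positive and a median of 0.0017 over all tested genes. These 9 signs are not independent, as the genes share libraries, and the 6-library set held 4 Rik null and 2 WT libraries. With the library set as a block the member median was 0.095, and Sox11, Dlx1 and Dlx2 were negative. Every member's values overlapped between the genotypes, whereas 1.74% of tested genes had no overlap.

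**Figure D1:**
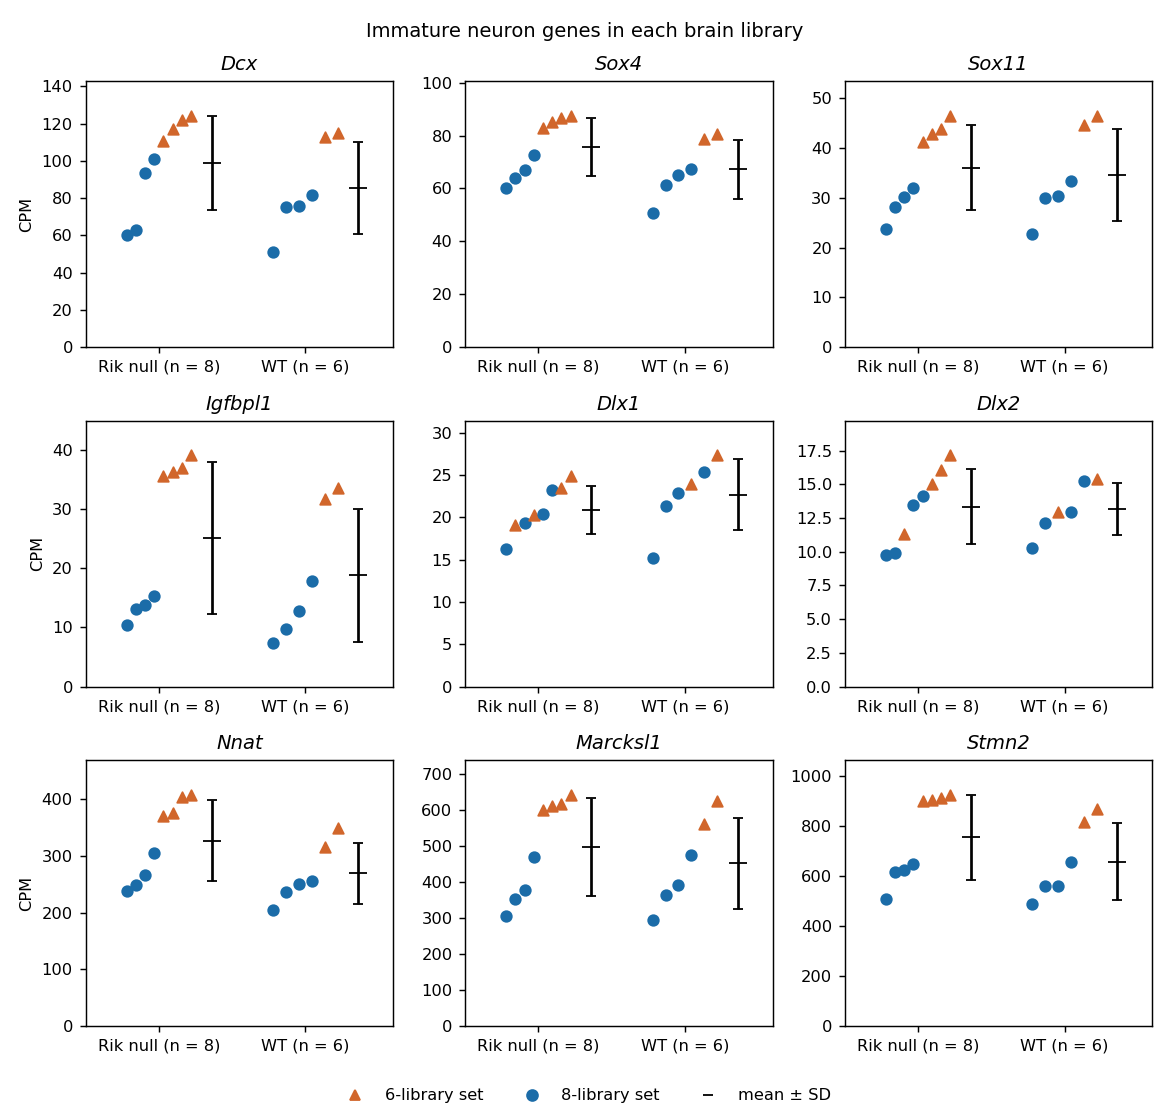
CPM of the 9 immature neuron genes in each library, Rik null (n = 8) left of WT (n = 6) in every panel, with the mean ± SD beside the points. Triangles mark the 6-library set and circles the 8-library set; the genotypes overlap in every panel, and triangles lie above all circles in every panel but Dlx1 and Dlx2.

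Among the transcription factors, Sox4, a SoxC activator of neuronal differentiation, ranged over 60.3, 77.7 and 87.5 CPM (lowest, median, highest) in Rik null and 50.8, 66.2 and 80.5 in WT. Sox11, its close relative, ranged over 23.7, 36.5 and 46.5 CPM in Rik null and 22.6, 31.9 and 46.4 in WT. The upper ends of Sox11 were almost equal, and WT 4 was the lowest library for both genes. The log2 fold change, Rik null over WT, was 0.17 ± 0.106 for Sox4 (SE, edgeR adjusted p = 0.398). It was 0.07 ± 0.168 for Sox11 (adjusted p = 0.868), with a 95% interval of -0.29 to 0.42. The third SoxC gene, Sox12, averaged 51.4 ± 9.87 CPM in Rik null and 50.6 ± 7.08 in WT (SD), so 0 of 3 SoxC genes were called, 0 at an unadjusted p of at most 0.05 and 0 by DESeq2.

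Dlx1, a homeodomain factor needed for interneuron migration and survival, was the only member with a lower fitted level in Rik null. Its values were 16.3, 20.3 and 24.9 CPM in Rik null and 15.2, 23.4 and 27.3 in WT (lowest, median, highest). Dlx2, encoded beside it on chromosome 2 and acting with it upstream of the later Dlx genes, ranged over 9.79, 13.8 and 17.2 CPM in Rik null and 10.3, 12.9 and 15.4 in WT. Neither separated the genotypes. The log2 fold change was -0.11 ± 0.113 for Dlx1 (SE, edgeR adjusted p = 0.62). It was 0.02 ± 0.13 for Dlx2 (adjusted p = 0.943). Dlx1as, an antisense RNA that overlaps Dlx1 and cannot be told apart from it if counting ignored strand, averaged 7.97 CPM in Rik null and 8.81 in WT (log2 fold change -0.14, adjusted p = 0.47).

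Within the wider GABAergic lineage list, 0 of 20 tested genes were called; 2 were lower at an unadjusted p of at most 0.05, and DESeq2 called 0. The list median was -0.06, and 6 of 20 fitted changes were positive, so this list leaned the other way from the median of the members. The 2 were Dlx5, a downstream Dlx factor, at 7.26 ± 0.965 CPM in Rik null and 8.95 ± 1.12 in WT (SD, adjusted p = 0.0938), and Lhx6, a factor of medial ganglionic eminence interneurons (log2 fold change -0.21, adjusted p = 0.231). Gsx2, with too few counts, was not tested.

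Dcx, the microtubule-binding protein by which migrating neurons are commonly recognised, had 60.3, 106 and 124 CPM in Rik null and 51.3, 78.8 and 115 in WT (lowest, median, highest). The ranges overlapped over most of their length. The log2 fold change was 0.22 ± 0.186 (SE, edgeR adjusted p = 0.565), and its 95% interval ran from -0.17 to 0.61. Of 21 genes for doublecortin relatives, Lis1 complex members, reelin signalling and tubulins, 1 rose and 0 fell, with a list median of 0.08; 2 were higher at an unadjusted p of at most 0.05, and DESeq2 called 2, as did edgeR with the library set as a block. The gene called by each was Reln, the secreted guide of neuronal positioning, at 194 ± 20.3 CPM in Rik null and 161 ± 12.5 in WT (SD, log2 fold change 0.27, adjusted p = 0.0428, and 0.0136 with the block). The second was Map2, a dendritic microtubule protein, with a log2 fold change of 0.18 and an edgeR adjusted p of 0.0637, against 0.0163 with the block and 0.0114 by DESeq2.

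Stmn2, a stathmin that regulates microtubules in growing axons, had the highest counts, 508, 774 and 925 CPM in Rik null and 487, 608 and 868 in WT. Its fold change was 0.20 ± 0.154 on the log2 scale (SE, edgeR adjusted p = 0.519). Marcksl1, which binds actin and the plasma membrane, had 307, 535 and 643 CPM in Rik null and 294, 434 and 626 in WT (lowest, median, highest). Its highest WT library exceeded 7 of the 8 Rik null libraries, and its fold change was 0.14 ± 0.187 (adjusted p = 0.738). Neither the 4 stathmins nor the 4 genes of the MARCKS and growth cone list held a called gene, and 0 of either list were below 0.05 unadjusted or called by DESeq2. Stmn1, the founding stathmin, averaged 506 CPM in Rik null and 474 in WT, and Gap43, a growth cone phosphoprotein, 376 CPM in Rik null and 326 in WT.

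Igfbpl1, an insulin-like growth factor binding protein-like secreted protein of neural progenitors and newborn neurons, varied most. It had 10.3, 25.4 and 39.1 CPM in Rik null and 7.31, 15.3 and 33.5 in WT (lowest, median, highest), a 5.35-fold span over the 14 libraries. Both genotypes had libraries near either end. Accordingly its log2 fold change, 0.44 with an SE of 0.377 (edgeR, adjusted p = 0.57), had a 95% interval of -0.36 to 1.23.

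Nnat, an imprinted gene for a small membrane proteolipid of developing neurons, came nearest to the threshold. It had 238, 338 and 408 CPM in Rik null and 205, 254 and 350 in WT (lowest, median, highest). Its means were 327 ± 70.6 in Rik null and 269 ± 53.4 in WT (SD), and the log2 fold change was 0.28 ± 0.14 (SE, 95% interval -0.01 to 0.58, edgeR adjusted p = 0.294). Nnat lies within Blcap on the opposite strand, and reads of both cannot be told apart if counting ignored strand. Blcap averaged 113 CPM in Rik null and 112 in WT (log2 fold change 0.01, adjusted p = 0.968).

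The 2 library sets lay further apart in these genes than the genotypes. In 7 of the 9 members all libraries of the 6-library set were above all of the 8-library set; 4.75% of tested genes did so. Because the sets were drawn from these libraries, though without these genes, their levels are given without a test. Igfbpl1 stood at 35.5 to 39.1 CPM in the Rik null libraries and 31.8 to 33.5 in the WT libraries of the 6-library set. In the 8-library set it stood at 10.3 to 15.3 in Rik null and 7.31 to 17.8 in WT, so that the means were 35.5 and 12.5 CPM over the 6-library and 8-library sets, 2.84-fold apart. No library of either genotype lay between 17.8 and 31.8 CPM.

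The other 6 of these 7 differed less. Mean levels, the 6-library set over the 8-library set, were 1.61-fold for Marcksl1 (610 and 380 CPM), 1.56-fold for Dcx (117 and 75.2), and 1.54-fold for Sox11 (44.2 and 28.8). They were 1.52-fold for Stmn2 (888 and 582), 1.48-fold for Nnat (371 and 251) and 1.31-fold for Sox4 (83.5 and 63.5). The Dlx genes stood apart from the rest. Dlx1 averaged 23.2 and 20.5 CPM (1.13-fold) and Dlx2 14.6 and 12.2 CPM (1.20-fold), and in both genes the sets overlapped. The spread within the 6-library set was narrow for Stmn2, at 818 to 925 CPM, and wider in the 8-library set, at 487 to 656.

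With the library set as a block in the fit, the genotype difference was estimated with smaller errors. The sets were drawn from the expression of these same libraries, not from a recorded batch, and p-values with the block do not allow for that. Of the 9 members 1 was called, against 8.38% of tested genes (3.81% higher and 4.56% lower). That member was Nnat, higher in Rik null by 0.19 ± 0.0575 on the log2 scale (SE, 95% interval 0.07 to 0.31, edgeR adjusted p = 0.0498). The call lay at the edge of the threshold. DESeq2 with the same block gave an adjusted p of 0.0199, whereas leaving out Rik null 5 and 8 gave 0.114 and adding labelled sex 0.121. That sex term used the labels, which the sex-linked genes of WT 1 and WT 6 did not match. Leaving out single libraries gave 0.027 to 0.16, below the threshold only without Rik null 6, WT 1 or WT 6. Within the 6-library set Nnat had 370 to 408 CPM in the 4 Rik null and 315 to 350 in the 2 WT libraries, with no overlap (log2 fold change 0.23, adjusted p = 0.0241, 3.23% of genes called). Within the 8-library set it had 238 to 306 CPM in Rik null and 205 to 256 in WT (0.16, adjusted p = 0.471, 0.253% of genes called).

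The other 8 were not called with the block, and Sox4 came next at 0.11 ± 0.0537 (SE, edgeR adjusted p = 0.218). Sox11 and Dlx2 changed sign, to -0.04 and -0.03. Marcksl1 was at 0.01 with a 95% interval of -0.17 to 0.20, and Igfbpl1 at 0.18 with an interval of -0.09 to 0.44. In the 6-library set 4 members, Sox4, Igfbpl1, Nnat and Stmn2, had every Rik null library above both WT libraries, as 13.5% of tested genes did. In the 8-library set 0 of 9 did, beside 2.94% of tested genes. A test of the difference between the sets in the genotype effect gave an adjusted p of 0.9998 for each member. It called 0 of 18170 genes by edgeR, with 439 below 0.05 unadjusted, and 0 by DESeq2, with 430. For Nnat the difference was 0.07, with a 95% interval of -0.18 to 0.32.

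**Figure D2:**
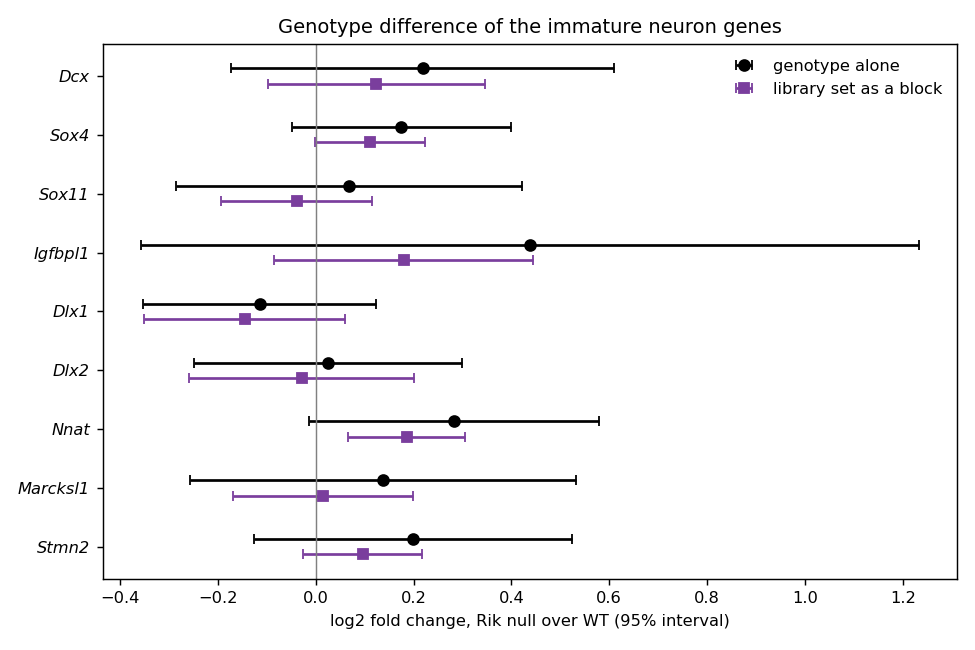
Log2 fold change, Rik null over WT, of each gene with its 95% interval, fitted on genotype alone (circles) and with the library set as a block (squares). Every interval from genotype alone spans 0; with the block, the interval of Nnat runs from 0.07 to 0.31 and the other 8 span 0.

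Covariation beyond genotype and set was measured after subtracting the mean of each genotype within each set from log2 CPM, so that the 14 libraries entered as deviations from their own group. All CPM values of a library share its total and its cell composition. Of 36 pairs, 35 correlated positively, with a median Pearson r of 0.56 and a range of -0.09 to 0.91. Pairs of other genes were not computed, so no share over all genes stands beside this count. By exact permutation within the groups, two-sided, 4 pairs passed Benjamini-Hochberg adjustment over the 36 by Pearson and 0 by Spearman correlation.

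The highest r, 0.91, was that of Marcksl1 and Stmn2 (exact permutation p = 0.0106, adjusted 0.0545, n = 14), with rho = 0.66 (p = 0.0479, adjusted 0.157) and r = 0.81 without 2 libraries, and it did not pass. Nnat and Marcksl1 had r = 0.89 (exact permutation p = 0.000977, adjusted 0.0176, n = 14) and rho = 0.86 (p = 0.00503, adjusted 0.0905), with r = 0.78 without the 2 libraries farthest from the median. Within the 6-library and 8-library sets their r was 0.89 and 0.92. Dlx1 and Dlx2, which share a locus, had r = 0.82 (exact p = 0.000868, adjusted 0.0176, n = 14), rho = 0.84 (p = 0.00188, adjusted 0.0677) and r = 0.79 without 2 libraries, and within the 6-library and 8-library sets 0.85 and 0.83. Both pairs had a high r in either set. Sox11 and Stmn2 had r = 0.90 (exact p = 0.00271, adjusted 0.0326, n = 14), rho = 0.70 (p = 0.0103, adjusted 0.124) and r = 0.74 without 2 libraries, but 0.08 in the 6-library set and 0.94 in the 8-library set. Sox4 and Dlx1 had r = 0.86 (exact p = 0.00434, adjusted 0.0391, n = 14), rho = 0.68 (p = 0.0296, adjusted 0.136) and r = 0.63 without 2 libraries, with 0.07 and 0.97 in the 6-library and 8-library sets.

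**Figure D3:**
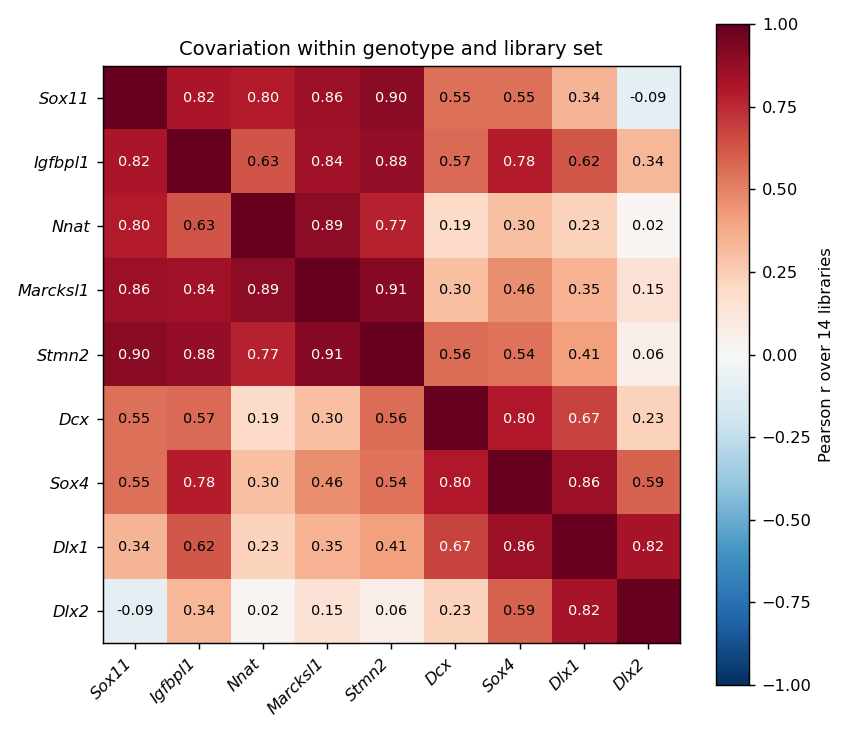
Pearson r of each pair of genes over 14 libraries, computed on log2 CPM after subtracting the mean of each genotype in each library set; genes were ordered after the values were seen. Sox11, Igfbpl1, Nnat, Marcksl1 and Stmn2 form a block of 0.63 to 0.91, and the pairs that join them to Dcx, Sox4, Dlx1 and Dlx2 run from -0.09 to 0.78.

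Arranged after the values were seen, the genes fell into blocks. Sox11, Igfbpl1, Nnat, Marcksl1 and Stmn2 had a median r of 0.85 over 10 pairs (0.63 to 0.91), and Dcx, Sox4, Dlx1 and Dlx2 0.74 over 6 pairs (0.23 to 0.86). The 20 pairs between the blocks had a median of 0.34. Because the blocks were drawn from these same values, a higher r within than between them was built in. Rik null 1 lay above the mean of its group in each gene of the first block (0.08 to 0.33 on the log2 scale). In each gene of the second block it lay below that mean (-0.29 to -0.13). Without this library all 36 pairs were positive. Sox4 and Sox11, which lie in different blocks, correlated at 0.55. Dlx2 was least tied to the others, with a median r of 0.19, and Igfbpl1 most, with 0.71.

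Much of this covariation rested on WT 4, the lowest of the 14 libraries in 8 of 9 members, all but Dlx2. WT 4 had 30390312 counts in all, and the cause of its low levels was not tested. Its levels were 51.3 CPM for Dcx, 7.31 for Igfbpl1, 294 for Marcksl1 and 205 for Nnat. Without it the median r was 0.26 and 23 of 36 pairs were positive, whereas without Rik null 1 the median was 0.76 and all 36 were positive. The 8-library set alone gave a median of 0.60, and the 6-library set alone 0.0096 with 19 of 36 pairs positive (range -0.93 to 0.89). Common movement of the 9 genes was thus not detectable in the 6-library set at its number of libraries.

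The genes most like the members were read from 12230 tested genes of at least 5 CPM by correlation, over the 14 libraries and within genotype and set, with the members' mean standardised profile. In order they were Mkrn3 (r = 0.95), Gng4 (0.93), Klhl13 (0.92), St6galnac5 (0.91), Cd24a (0.91), Tubb2b (0.91), Lpl (0.90), Rcn1 (0.90), Thsd1 (0.89) and Sybu (0.89). Cd24a, a surface glycoprotein, and Tubb2b, a beta-tubulin, are in the neuroblast list. None was called between the genotypes, the smallest adjusted p being 0.122 for Thsd1. All 10 averaged higher in the 6-library set, from 1.09-fold for Thsd1 (6.71 and 6.17 CPM) to 2.14-fold for Cd24a (62.6 and 29.2 CPM). Those outside the neuroblast list had entered the clustering that drew the sets. Over all 18170 tested genes the median r with the members' profile was -0.0066. Among the lists without members, medians ran from -0.70 for choroid plexus to 0.59 for the neuroblast genes. Mature oligodendrocyte genes had a median of -0.59 and olfactory bulb genes of 0.39.

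Other genes of newborn neurons followed the members only in part. Of 26 further neuroblast genes, 0 were called between the genotypes by edgeR, with 3 higher at an unadjusted p of at most 0.05, and DESeq2 called 1, Celsr1, a cadherin of planar polarity. Their median log2 fold change was 0.11, with 21 of 26 positive. Between the library sets 13 of 26 had no overlap, each higher in the 6-library set. Dpysl3, a collapsin response mediator in growth cones, averaged 286 CPM in the 6-library set and 134 in the 8-library set (2.14-fold), and Tubb2b 452 and 230 (1.96-fold). Elavl4, an RNA-binding protein of neurons, and Calb2, of olfactory interneurons, differed by 1.03-fold and 0.998-fold.

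Relatives of the members followed them between the sets in part. Genes named here that were neither members nor in the neuroblast list had themselves entered the clustering that drew the sets. All 3 SoxC genes and all 4 MARCKS and growth cone genes, members included, had no overlap, and Sox12 averaged 59.6 CPM in the 6-library set and 44.7 in the 8-library set. Marcks averaged 624 and 480 CPM, and Tuba1a, the main alpha-tubulin of newborn neurons, 2053 and 1253. Of the 4 stathmins 2 overlapped between the sets, Stmn3 (831 and 677 CPM) and Stmn4 (202 and 176 CPM), and of the 21 doublecortin and microtubule partners 7 were higher without overlap, with a list median of 1.06-fold; Dclk1, a relative of Dcx, was at 1.03-fold. Dlx5 and Dlx6 were at 0.903-fold and 0.970-fold, with overlap. Of the 20 GABAergic lineage genes, however, 0 were higher without overlap, and 2, Gad1 and Etv1, were lower. Gad1, the GABA-synthesising enzyme, averaged 284 CPM in the 6-library set and 341 in the 8-library set.

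Markers of some other cells differed between the same sets. All of these markers had entered the clustering that drew the sets, so their separation is not independent of it. Of 19 genes for stem and transit amplifying cells, 6 were higher without overlap, all of the cell cycle. Top2a, a topoisomerase of dividing cells, averaged 13.7 CPM in the 6-library set and 4.87 in the 8-library set (2.80-fold), and Mki67 11.4 and 4.45 (2.56-fold). Of 11 tested genes of the outer granule layer of the cerebellum 4 were higher without overlap and 0 lower, with a list median of 1.17-fold. The largest ratio was that of Nhlh1, a helix-loop-helix factor with low counts, at 6.25 and 1.45 CPM (4.32-fold). Zic1, Neurod1, Barhl2 and Cntn2 were at 1.06-fold, 1.05-fold, 1.03-fold and 0.988-fold, and Gli1 at 0.747-fold, each with overlap. Mature oligodendrocyte genes went the other way: 9 of 9 were lower without overlap, beside 4.26% of tested genes, and their summed level was 10467 to 12071 CPM in the 6-library set and 14619 to 19160 in the 8-library set. Of 16 mature neuron genes 6 were lower and 1 higher. Of 9 astrocyte genes 2 were higher and 3 lower, and of 8 endothelial genes 1 was lower. No tested gene of the olfactory bulb, hypothalamus, pituitary, oligodendrocyte precursor, microglia, choroid plexus, ependymal or meningeal lists separated the sets. Medians of those lists ran from 0.954-fold to 1.09-fold. The part of these cells in the levels of the immature neuron genes was not tested.

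**Figure D4:**
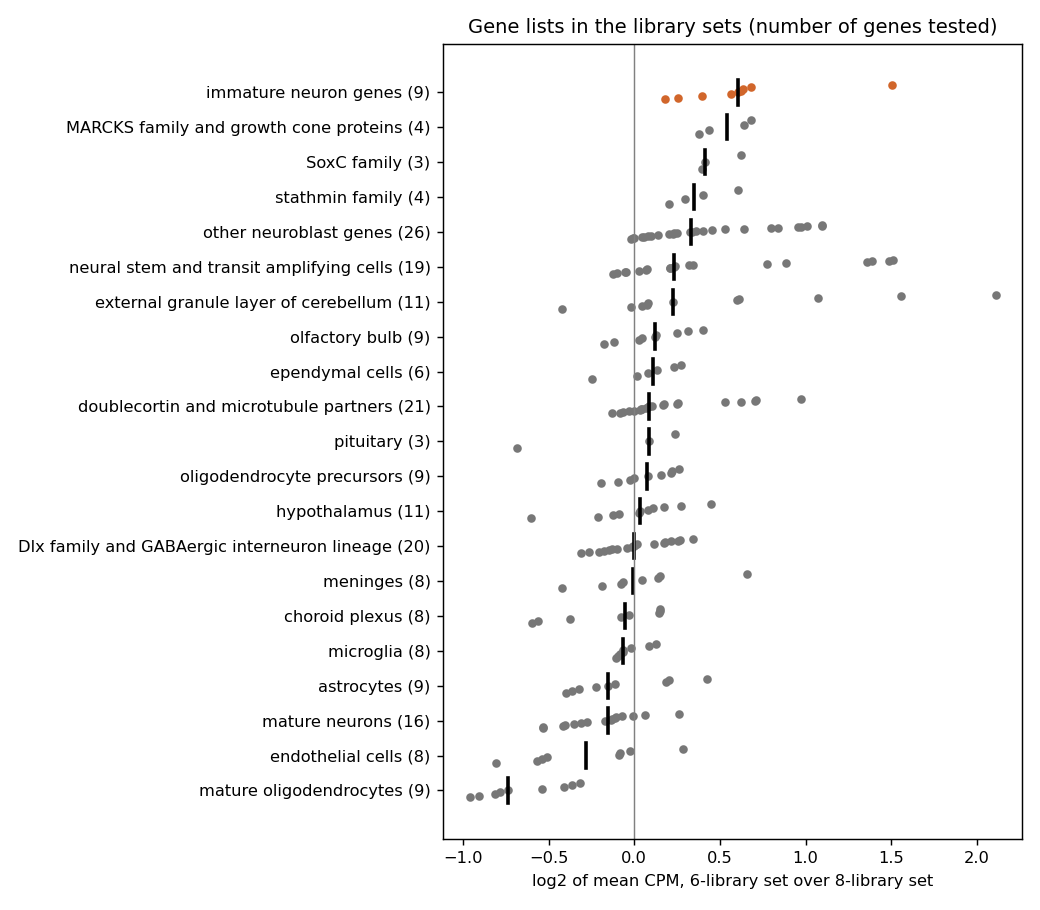
Log2 ratio of mean CPM, the 6-library set over the 8-library set, for each tested gene (points) and the median (bars) of each list, with the number of genes in parentheses. The 9 immature neuron genes all lie right of 0, at a median of 1.52-fold, and the 9 mature oligodendrocyte genes all lie left of 0, at a median of 0.599-fold. Only the immature neuron genes and the other neuroblast genes were left out of the clustering that drew the sets.

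Between the genotypes the same lists held few calls. Neural stem genes had 0 of 19 called, with 2 higher and 1 lower at an unadjusted p of at most 0.05 and 1, the cyclin gene Ccnd2, called by DESeq2, and granule layer genes had 0 of 11, 0 and 0. Mature oligodendrocyte genes had 0 of 9 called, 0 unadjusted and 0 by DESeq2. With the library set as a block, 2 neural stem genes were called higher in Rik null by edgeR, Ccnd2 (adjusted p = 0.00282) and Top2a (adjusted p = 0.042), and 1 mature oligodendrocyte gene, Mag (adjusted p = 0.0182). The summed level of the 9 immature neuron genes ranged from 1245 to 2263 CPM in Rik null and from 1144 to 2157 CPM in WT. By set it was 2006 to 2263 CPM in the 6-library set and 1144 to 1622 in the 8-library set. This sum mainly reflected Stmn2, Marcksl1 and Nnat, whose means over all libraries were 713, 478 and 302 CPM, before Dcx at 93.1. Beside it, 1 of 9 astrocyte genes was called by edgeR, Gfap, which rose (320 CPM in Rik null and 252 in WT, adjusted p = 0.00289). The astrocyte list had a median log2 fold change of 0.05, with 6 of 9 positive. Of 8 choroid plexus genes 4 rose, and of 8 meningeal genes 3 rose. Of 8 endothelial genes 1 was called, Cdh5, which fell (12.6 CPM in Rik null and 15.7 in WT, adjusted p = 0.0196). The edgeR fit with the library set as a block called 3 astrocyte, 5 choroid plexus and 5 meningeal genes higher and 3 endothelial genes lower. Over all tested genes that fit called 3.81% higher and 4.56% lower. The part of these cells in the values of the members was not tested.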

How the data were processed

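RNA of 1 side of 14 brains was sequenced by a service laboratory. Which aligner, counting program, strand setting and annotation release it used is not given in the sources used here. Submitters' processing notes name mm10. The authors deposited 1 table of whole-number counts per gene, not normalised, and FPKM values, scaled by the authors for library and gene length. The deposited columns of the authors' comparison (group signal means of normalised counts, log2 fold changes and p-values) hold their own results and were not used. Positions in the table are not those of GRCm38 and are not printed.

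The counts of 18170 genes left by filterByExpr were tested by genotype with the quasi-likelihood functions of edgeR 4.0.16 (R 4.3.3, TMM factors) and with DESeq2 1.42.0 as an alternative; p-values were adjusted over all tested genes. Log2 CPM had a prior count of 2. Library sets came from average linkage on 1 minus Pearson r over 18135 genes. The smallest p that the 27648 arrangements allow is 3.6e-05. Same-numbered libraries of the 2 genotypes correlated at -0.337 to 0.316 in their deviations, so numbers were not taken as pairs. No 2 libraries agreed within counting noise. Nothing in the labels says whether WT and Rik null pups shared litters one by one.

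The members and lists were chosen with earlier results of these data known. Named genes were Rik, the members, genes that overlap them, called genes of each list and the 10 most like the members; other list genes were named after their values were seen. Alternatives were another normalisation, other filters, labelled sex, set and number blocks, each set alone, and leaving out libraries.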

Additional observations from a re-analysis of the deposited data

How the results depend on the processing

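The count of members called was 0 under every setting but the library set as a block, DESeq2 with that block, and the 6-library set alone, each 1 (Nnat, with log2 fold changes of 0.19, 0.19 and 0.23). It ranged from 0 to 1 when single libraries were left out with the block. The fits with the block by DESeq2, with Rik null 5 and 8 left out, with labelled sex and without single libraries were added after the data were seen, as were those that left out WT 1 and WT 6 or Rik null 5 and 8 without the block. Signs reversed for Sox11 with labelled sex and without WT 1 and WT 6 (-0.032), with the set block (-0.039), in the 8-library set (-0.024), in the 6-library set (-0.063), with DESeq2 and the block (-0.033), with the block and without Rik null 5 and 8 (-0.053), and with the block and sex (-0.10). Dlx2 reversed with the set block (-0.029), in the 8-library set (-0.10), with DESeq2 and the block (-0.023) and with the block and sex (-0.045), and Marcksl1 in the 8-library set (-0.016) and with the block and sex (-0.030). Leaving out single libraries also reversed Sox11 and Dlx2 without the block, and Sox11, Dlx2 and Marcksl1 with it; over both fits Sox11 ranged from -0.098 to 0.17, Dlx2 from -0.088 to 0.083 and Marcksl1 from -0.051 to 0.26, with Sox11 below 0 in each of the 14 left-out fits with the block. The causes were not tested.

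Genes called over the whole table numbered 602, against 1125 with DESeq2, 359 with no filter, 153 with labelled sex, 8 with sex and without WT 1 and WT 6, 1522 with the set block, 46 in the 8-library set, 310 without Rik null 5 and 8, 168 without WT 1 and WT 6, 1953 with DESeq2 and the block, and 949 with the block and without Rik null 5 and 8. Leaving out single libraries gave 287 (without WT 4) to 820 (without Rik null 1), and 839 to 2193 with the block. With the replicate number as a block 769 were called and 0 members, with Nnat at 0.38; 2 of 6 numbers correlated best with their own. The median r of the members was 0.0096 in the 6-library set alone and 0.26 to 0.76 without single libraries. The lowest counts of a member in a library were 154 for Igfbpl1 and 164 for Dlx2.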
